A study of Mus musculus with 11 samples.

Results

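The synaptic vesicle release and recycling machinery was followed here through 36 genes, listed by symbol and looked up in a table of ribosome footprints from mouse cortex. All 36 were among the 4338 genes of the table, and for each gene the listed transcript that collected most counts over the libraries was used. They encode proteins of the vesicle membrane and its reserve pool (7 genes), calcium sensors and their Rab3 partners (6), SNARE proteins with complexins and the disassembly enzymes (9), large proteins of the active zone (4) and the endocytic machinery that retrieves the membrane (10). For 35 of them the counts were high enough for a test; Vamp1 was too low.

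A synaptic vesicle is filled with transmitter, held near the release site, primed, and fused with the plasma membrane when calcium enters the nerve ending. SNARE proteins on the vesicle and on the target membrane zip together to drive fusion, synaptotagmins sense the calcium, and the ATPase NSF with its SNAP adaptors takes the spent complexes apart. The membrane is then recovered by clathrin, the adaptor AP-2 and dynamin, and in cortical neurons this cycle carries most glutamate and GABA release.

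The mice were wild-type C57BL6 animals aged 7 to 8 weeks. In the occlusion groups a filament blocked the right middle cerebral artery for 35 min under isoflurane, followed by 3 h of reperfusion, and the cortex of the occluded (ipsilateral, 4 libraries) and of the opposite hemisphere (contralateral, 4 libraries) was profiled. Sham animals (3 libraries) were anaesthetised and had the arteries exposed without a filament; the side of their cortex is not stated. Footprints are the stretches of messenger RNA shielded by ribosomes, here left after MNase digestion and purified by immunoprecipitation of the large subunit (P0). With no total RNA analysed here the amount of a transcript and its translation cannot be told apart.

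Animals of 1 replicate number were operated on the same day; whether both hemispheres of a number came from the same animals is not stated. Library totals are sums over the 1 transcript used per gene. They were 64461 to 256655 counts in sham, 137370 to 571352 in contralateral and 35066 to 137340 in ipsilateral libraries. Ipsilateral replicate 4 and sham replicate 2 were the shallowest. The tissue entries of the 4 ipsilateral samples name the contralateral side, whereas their titles name the ipsilateral side, and the titles were followed. Hspa1a, the stress-induced chaperone gene, measured 1678 to 5315 CPM (counts per 1000000 of the TMM-scaled library total) in these 4 libraries and 61.5 to 161 CPM in the other 7. Neuron markers other than presynaptic ones (13 of 14 in the table) summed to 12780 to 14094 CPM in sham, 11758 to 14091 in contralateral and 12049 to 13192 in ipsilateral cortex. Oligodendrocyte markers (8 of 10 in the table) summed to 2371 to 2985, 2374 to 3353 and 3111 to 7202 CPM in the same order, and microglia markers (8 of 9) to 906 to 1199, 1237 to 1447 and 1543 to 2067 CPM. Of these, 3 oligodendrocyte markers passed the test between the hemispheres. Striatal markers (2 of 7 in the table) summed to 433 to 703 CPM in sham, 176 to 533 in contralateral and 159 to 531 in ipsilateral cortex. Both lay below 0 in both comparisons with sham, with median log2 differences of -0.69 ipsilaterally and -1.03 contralaterally, and neither passed. Blood markers (4 of 7 in the table) summed to 891 to 1320, 567 to 998 and 1038 to 2037 CPM, with a median log2 difference of 0.95 between the hemispheres, where 2 passed. Glutamatergic neuron markers (6 of 6 in the table) summed to 1542 to 2016, 1366 to 1776 and 1017 to 1666 CPM in sham, contralateral and ipsilateral cortex. Of the 5 tested, 3 lay above 0 between ipsilateral and sham cortex. Astrocyte markers (9 of 9) summed to 10625 to 14226, 12134 to 16453 and 11509 to 13352 CPM. No glutamatergic or astrocyte marker passed in any comparison. The part of all these cell types in the values below was not tested. None of the 7 endothelial and mural markers was in the table. In bulk tissue, fewer cells of a type and less RNA per cell cannot be told apart.

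The vesicle genes held a similar share of the library total, summed over the transcript used per gene, in most libraries. It was 3.34%, 3.15% and 3.23% in sham replicates 1, 2 and 5, and 3.16%, 3.19%, 3.27% and 3.12% in contralateral replicates 1, 4, 5 and 6. In ipsilateral replicates 2, 4, 5 and 6 the share was 2.81%, 3.14%, 3.24% and 2.76%. Ipsilateral replicates 2 and 6 lay below every other library, while replicates 4 and 5 lay within the range of the other groups, so the groups overlapped. The group means were 3.24% ± 0.0978 (SD, n = 3) in sham, 3.19% ± 0.0613 (n = 4) in contralateral and 2.99% ± 0.237 (n = 4) in ipsilateral cortex. Among the roles, SNAREs with complexins and disassembly enzymes took 0.842% ± 0.0409 of sham, 0.815% ± 0.0736 of contralateral and 0.739% ± 0.0799 of ipsilateral footprints. Their sham (0.796% to 0.873%) and ipsilateral libraries (0.633% to 0.81%) overlapped. Vesicle membrane genes took 0.678% ± 0.0631, 0.651% ± 0.0463 and 0.608% ± 0.0562 in the same order. Endocytic genes took 1.01% ± 0.0757, 0.955% ± 0.0387 and 0.933% ± 0.0811. Calcium sensors and Rab3 took 0.533% ± 0.0645, 0.589% ± 0.041 and 0.53% ± 0.0603. The 4 active zone genes took 0.175% ± 0.0344, 0.176% ± 0.0196 and 0.179% ± 0.032.

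**Figure D1:**
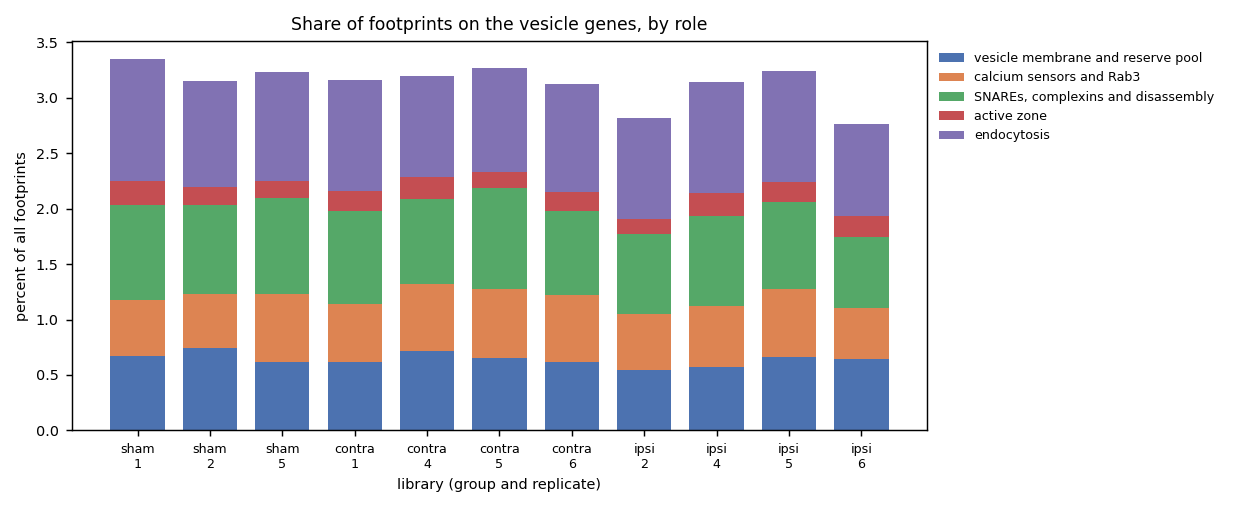
Percent of all footprints on the transcripts used per gene (vertical axis) that fell on the 36 vesicle genes in each of the 11 libraries (horizontal axis), stacked by role. The totals run from 2.76% in ipsilateral replicate 6 to 3.34% in sham replicate 1, and the active zone genes hold the smallest share in each library, at most 0.214%.

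No vesicle gene passed the test in any comparison. Between ipsilateral and sham cortex, edgeR's quasi-likelihood test with Benjamini-Hochberg adjustment called 0 of the 35 genes, where it called 0.105% of all 3807 genes tested. The smallest adjusted p among them was 0.294, for Syt2. At an unadjusted p under 0.05 stood 6 of the 35 genes (17.1%, against 7.72% of all genes). The median SE (log2) was 0.20 for the 35 genes and 0.32 over all genes. An equal difference thus reaches that p more readily among the vesicle genes, and the 2 shares are not like for like. Syn2, Vamp2, Cplx2, Napa and Snap91 had the lower values after occlusion (3.47% of all genes did at that p), and Syt2 had higher values (4.26% of all genes). The log2 difference was below 0 for 22 genes and above 0 for 13, with a median of -0.09, where 50.0% of all genes lay below 0 with a median of 0.00. Syn2, Cplx2 and Snap91, 3 genes, had no overlap between the groups, all with lower ipsilateral values (8.57%, against 7.17% of all genes in either direction and 3.31% with lower values).

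Between the hemispheres the test again called 0 of 35 genes (0.315% of all genes), with a smallest adjusted p of 0.603. Only Syt1 stood at an unadjusted p under 0.05, where 7.88% of all genes did, and only Syt1 had groups that did not overlap, with lower ipsilateral values (4.57% of all genes in either direction, 2.44% with lower values). Of the 35 genes, 25 had a log2 difference below 0 (71.4%, against 50.3% of all genes), with a median of -0.06 against 0.00. Between contralateral and sham cortex the same test called 0 of 35 genes and 0 of all 3807 genes. Syt2 and Cplx2 stood at an unadjusted p under 0.05 there (5.71%, against 5.59% of all genes). For Syt2 and Snap91, again 2 genes, there was no overlap between the groups (5.71%, against 7.70% of all genes). Of the 35 log2 differences 19 lay below 0 (54.3%, against 48.0% of all genes), with a median of -0.05 against 0.01. Both comparisons with sham share the 3 sham libraries.

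The intervals say how large a difference could have been missed. For ipsilateral against sham cortex the 95% interval lay within a factor of 2 in both directions (log2 from -1 to 1) for 31 of the 35 genes (61.8% of all genes) and within a factor of 1.5 for 21 (14.3% of all genes). Syt2, Syt7, Cplx2 and Napa were the 4 genes with a wider interval. Between the hemispheres all 35 tested genes had an interval within a factor of 2 (73.8% of all genes), and 22 within a factor of 1.5 (19.1%). For contralateral against sham cortex the numbers were 34, with Syt2 outside (80.1% of all genes), and 22 (22.1%). The median half-width of the interval was 0.40, 0.37 and 0.38 (log2) in the 3 comparisons, against 0.65, 0.58 and 0.55 over all genes. The shares of genes within a factor of 2 or 1.5 therefore depend on these widths as well as on the differences.

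**Figure D2:**
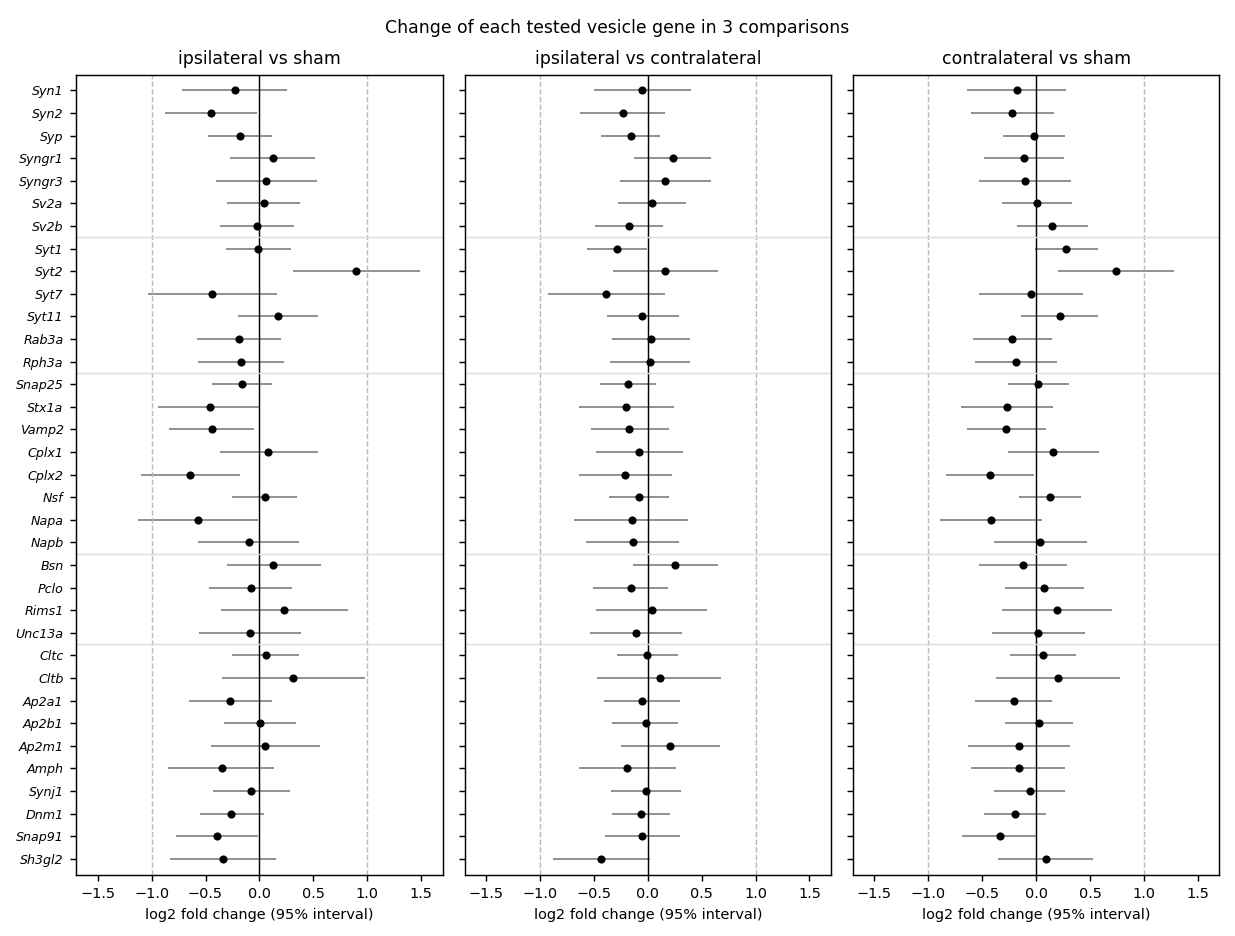
Log2 fold change (horizontal axis) with its 95% interval for the 35 tested genes (rows, in blocks by role) in the 3 comparisons (panels); the dashed lines mark a factor of 2. Most intervals include 0, and the interval of Syt2 lies above 0 in both comparisons with sham, from 0.31 to 1.49 and from 0.20 to 1.28.

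Per length of coding sequence, the genes of the vesicle cycle spanned a 231-fold range in sham cortex. Snap25 stood highest at 7359 ± 729 CPM per kb of coding sequence (SD, n = 3), followed by Syp at 3045 ± 433, Syt1 at 2199 ± 559 and Vamp2 at 2034 ± 40.8. Syt1 and Vamp2 did not differ beyond their spread. Lowest were the 4 active zone genes, from Unc13a at 60.3 ± 9.78 to Rims1 at 31.9 ± 5.44. Pclo, Bsn and Unc13a also have the longest coding sequences of the 36. The median of the 36 genes was 372 CPM per kb, against 78.2 over the 4277 genes with a coding length, and 17 of the 36 lay above the 90th percentile of those genes. In summed counts 5 genes, Snap25, Cltc, Syt1, Syp and Dnm1, held 51.5% of all footprints on the machinery.

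**Figure D3:**
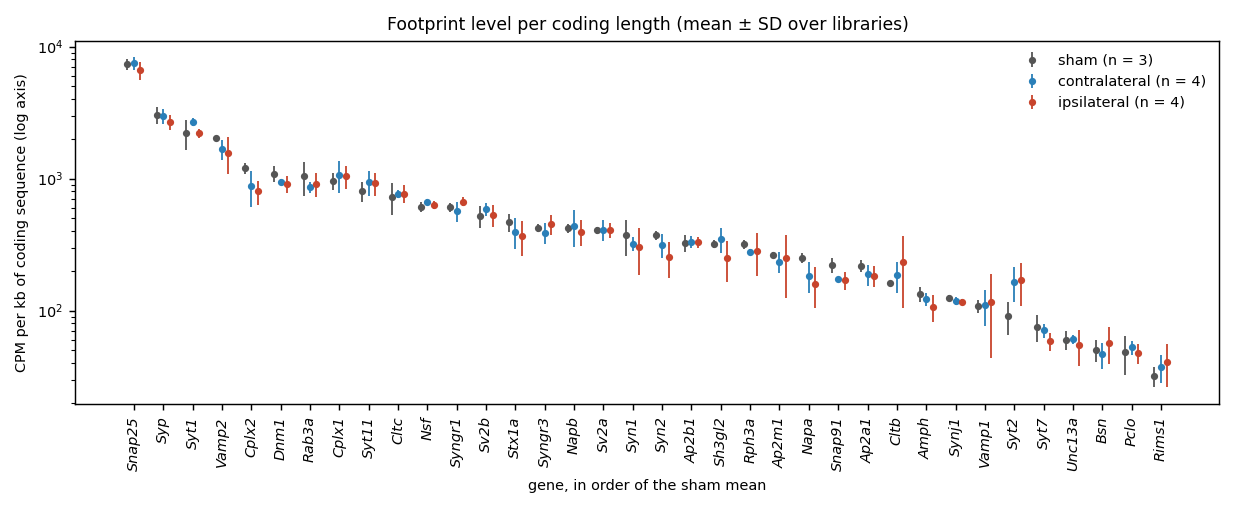
Footprint level per kb of coding sequence (CPM per kb, log axis) for the 36 genes in the order of their sham means; points are group means and bars the SD over libraries (3 sham, 4 contralateral, 4 ipsilateral). The order runs from Snap25 (7359 in sham) to Rims1 (31.9).

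The vesicle membrane genes encode synapsins, which tether vesicles in the reserve pool, and membrane-spanning proteins of the vesicle. Syp, encoding synaptophysin (chromosome X, 7638471 to 7653256, plus strand of mm10, 7 exons), measured 2726, 3328 and 2551 CPM in sham replicates 1, 2 and 5. It measured 2460, 3330, 2788 and 2711 CPM in contralateral replicates 1, 4, 5 and 6, and 2244, 2392, 2450 and 2976 CPM in ipsilateral replicates 2, 4, 5 and 6. The 3 groups overlapped, with log2 differences of -0.18 ± 0.15 (SE) for ipsilateral against sham and -0.16 ± 0.14 for ipsilateral against contralateral. The Syp transcript shares 875 nt with Gm14703 on the opposite strand, and the use of strand in counting is not given in the sources used here, so its counts are uncertain.

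Syn2, encoding synapsin II (chromosome 6, 115134902 to 115276559, plus strand, 11 exons), measured 552, 563 and 486 CPM in sham cortex, 560, 329, 455 and 474 CPM contralaterally and 411, 207, 367 and 472 CPM ipsilaterally. Every ipsilateral library lay below every sham library, and the contralateral libraries spanned both ranges. Its log2 difference between ipsilateral and sham cortex was -0.45 ± 0.21 (0.732-fold, 95% interval -0.88 to -0.02, adjusted p = 0.613). Syn1, the other synapsin gene of the group, ran from 419 to 1000 CPM over the 11 libraries, the extremes being ipsilateral replicate 2 and sham replicate 2, and its difference from sham was -0.23 ± 0.24.

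The remaining vesicle membrane genes differed little. Sv2a and Sv2b encode the SV2 glycoproteins, and Sv2a is the binding site of the drug levetiracetam. Sv2a measured 902 ± 57.5 CPM in sham, 911 ± 161 in contralateral and 913 ± 117 in ipsilateral cortex, and Sv2b 1067 ± 206, 1198 ± 136 and 1084 ± 205 CPM. Syngr1 and Syngr3 encode synaptogyrins, relatives of synaptophysin. Their ipsilateral means were 470 ± 35.6 and 311 ± 53.8 CPM, against 397 ± 67.7 and 268 ± 47.6 contralaterally, and the log2 differences of 0.23 ± 0.18 and 0.16 ± 0.21 had intervals that included 0.

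**Figure D4:**
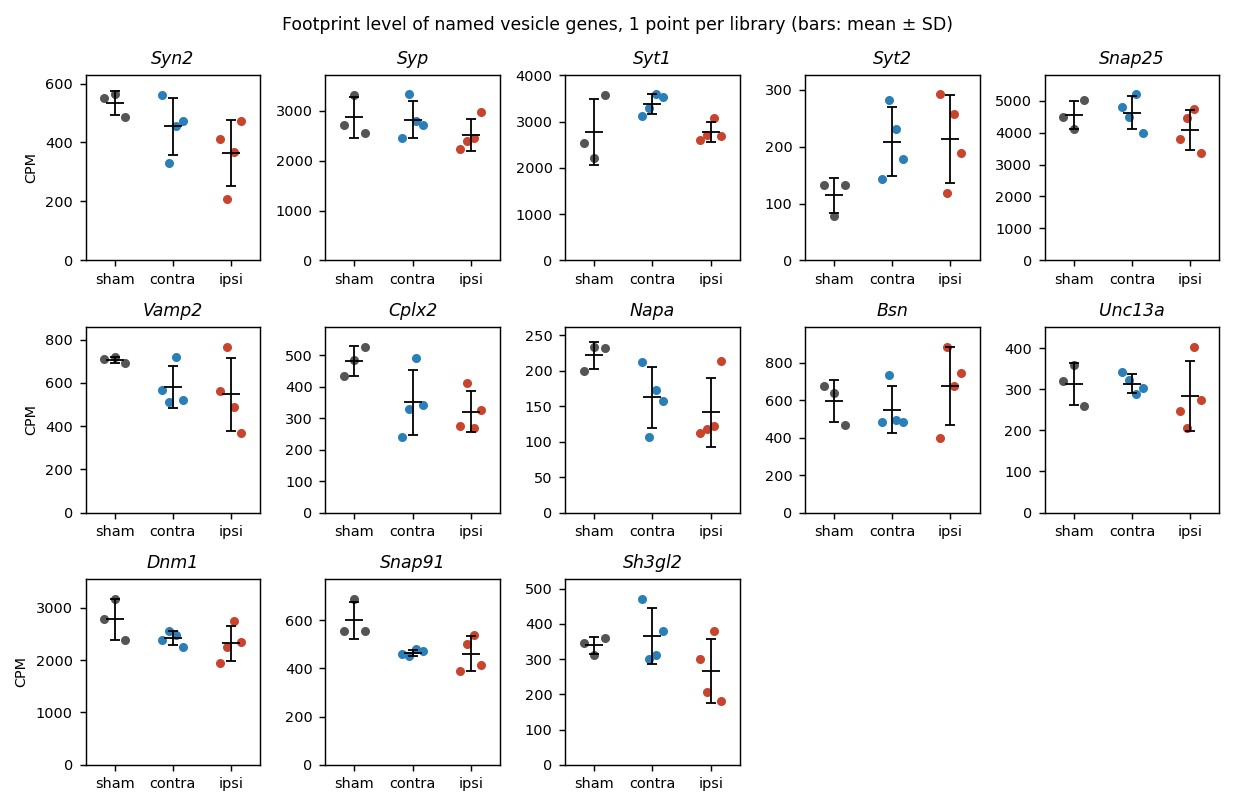
CPM (vertical axes, from 0) of the 13 genes described library by library, 1 point per library in sham, contralateral (contra) and ipsilateral (ipsi) cortex, with the mean and SD. The groups do not overlap between ipsilateral and sham cortex for Syn2, Cplx2 and Snap91, between the hemispheres for Syt1, and between contralateral and sham cortex for Syt2 and Snap91.

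Synaptotagmins 1 and 2 are the fast calcium sensors of release; Syt2 is the form used by fast-spiking interneurons and brainstem synapses. Syt1 (chromosome 10, 108497650 to 109010975, minus strand, 12 exons) and Syt2 (chromosome 1, 134709300 to 134753149, plus strand, 9 exons) had the same base at 76.0% of 1235 aligned coding positions. Positions 922 to 981 of Syt1 and 925 to 984 of Syt2 are shown 5′ to 3′ with the 7 differing bases in capitals. They are shown because no other aligned window of 60 bases that starts at a codon has more matching bases.
Syt1: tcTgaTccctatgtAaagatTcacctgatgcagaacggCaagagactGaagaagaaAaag
Syt2: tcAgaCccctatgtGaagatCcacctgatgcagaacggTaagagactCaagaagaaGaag
The longest run shared by the 2 coding sequences was 26 nt, which the bases shown do not hold. No 28-nt word of either gene occurred in another gene's transcripts.

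Syt1 measured 2542, 2219 and 3570 CPM in sham cortex, 3115, 3300, 3586 and 3534 CPM contralaterally and 2603, 2717, 3087 and 2693 CPM ipsilaterally. Every ipsilateral library lay below every contralateral library, and the sham libraries spanned both. The log2 difference between the hemispheres was -0.29 ± 0.14 (0.819-fold, 95% interval -0.56 to -0.01, adjusted p = 0.603), and between ipsilateral and sham cortex it was -0.01 ± 0.15 (interval -0.31 to 0.29).

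Syt2 showed the largest difference of any of the 35 genes. It measured 133, 78.1 and 132 CPM in sham, 143, 283, 231 and 179 CPM in contralateral and 292, 118, 257 and 189 CPM in ipsilateral cortex. Every contralateral library lay above every sham library; ipsilateral replicate 4, with 4 counts, lay within the sham range and the other 3 ipsilateral libraries above it. The log2 difference from sham was 0.90 ± 0.29 ipsilaterally (1.87-fold, 95% interval 0.31 to 1.49, adjusted p = 0.294) and 0.74 ± 0.27 contralaterally (1.67-fold, 0.20 to 1.28, adjusted p = 0.769). Sham replicate 2 held only 5 counts, and without it the ipsilateral difference from sham was 0.79. Leaving out any 1 library gave 0.69 to 1.01. The hemispheres differed by 0.16 ± 0.24 (interval -0.32 to 0.65). Markers of GABAergic neurons, 7 of 7 in the table and none at 0 in any library, summed to 2334 to 2985 CPM in sham, 2350 to 2748 in contralateral and 2866 to 3822 in ipsilateral cortex. None of them passed the test, and their part in the values of Syt2 was not tested.

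Within each library, Syt1 exceeded Syt2 per coding length 19.1-, 28.5- and 27.1-fold in sham, 21.8-, 11.7-, 15.6- and 19.7-fold in contralateral and 8.94-, 23.1-, 12.0- and 14.3-fold in ipsilateral cortex. The ranges overlapped. Syt7, a slower sensor with high calcium affinity, measured 155 ± 35.4 CPM in sham, 146 ± 17.6 in contralateral and 121 ± 19.1 in ipsilateral cortex, a log2 difference of -0.44 ± 0.29 between ipsilateral and sham cortex. Syt11, a synaptotagmin that does not bind calcium, measured 1034 ± 181, 1212 ± 254 and 1190 ± 242 CPM. Rab3a, the GTPase that brings vesicles to the release site, measured 684 ± 197, 566 ± 51.6 and 603 ± 125 CPM, and its effector Rph3a (rabphilin) 648 ± 53.8, 565 ± 29.4 and 580 ± 204 CPM.

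Among the SNARE genes, Snap25 encodes the target-membrane protein SNAP-25 (chromosome 2, 136713453 to 136782428, plus strand, 8 exons). It measured 4496, 4125 and 5022 CPM in sham, 4810, 4487, 5193 and 3988 CPM in contralateral and 3799, 4459, 4740 and 3370 CPM in ipsilateral cortex. The groups overlapped, and the ipsilateral difference was -0.16 ± 0.14 from sham (95% interval -0.44 to 0.12) and -0.18 ± 0.13 from contralateral cortex (-0.44 to 0.08). Stx1a, its partner syntaxin 1A, measured 404 ± 66.0 CPM in sham, 343 ± 88.1 in contralateral and 317 ± 95.1 in ipsilateral cortex, a log2 difference of -0.46 ± 0.24 between ipsilateral and sham cortex.

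The vesicle SNARE synaptobrevin 2 is the product of Vamp2 (chromosome 11, 69088490 to 69092384, plus strand, 5 exons). Sham libraries were close together at 713, 719 and 692 CPM, contralateral libraries lay at 567, 513, 720 and 522 CPM, and ipsilateral libraries were spread over 561, 768, 490 and 369 CPM. Ipsilateral replicate 4 lay above all sham libraries and the other 3 below them. The log2 difference between ipsilateral and sham cortex was -0.44 ± 0.20 (0.735-fold, 95% interval -0.84 to -0.05, adjusted p = 0.564). It was -0.29 without ipsilateral replicate 6 and -0.58 without ipsilateral replicate 4. Vamp1, which encodes synaptobrevin 1, held 1 to 29 counts per library and 29.5 to 111 CPM, too few for the test.

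Complexins clamp and then promote SNARE-driven fusion. Cplx1 (chromosome 5, 108518554 to 108550024, minus strand) and Cplx2 (chromosome 13, 54371349 to 54383917, plus strand, 4 exons each) had the same base at 79.6% of 402 coding positions. The first 60 coding bases, from the start codon, are shown with the 5 differing bases in capitals, because they hold the 32-nt run that the genes share.
Cplx1: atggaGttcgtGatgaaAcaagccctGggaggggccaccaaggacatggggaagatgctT
Cplx2: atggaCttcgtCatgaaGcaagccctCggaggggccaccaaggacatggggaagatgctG
Only 1.33% of the 28-nt words of either coding sequence occurred in the other gene's transcripts.

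Cplx2 measured 435, 484 and 528 CPM in sham, 239, 329, 492 and 341 CPM in contralateral and 277, 413, 269 and 326 CPM in ipsilateral cortex. All ipsilateral libraries lay below all sham libraries, as did 3 of the 4 contralateral ones. The log2 difference from sham was -0.64 ± 0.23 ipsilaterally (0.641-fold, 95% interval -1.10 to -0.18, adjusted p = 0.379) and -0.43 ± 0.20 contralaterally (0.742-fold, -0.84 to -0.02, adjusted p = 0.864). Leaving out 1 library moved the contralateral value between -0.65, without contralateral replicate 5, and -0.31. Cplx1 measured 386 ± 55.8 CPM in sham, 431 ± 116 in contralateral and 418 ± 84.0 in ipsilateral cortex, a difference of 0.08 ± 0.22 between ipsilateral and sham cortex. The ratio of Cplx1 to Cplx2 per coding length was 1.01, 0.806 and 0.620 in the sham libraries, 1.14, 1.63, 1.01 and 1.23 contralaterally and 1.38, 1.21, 1.18 and 1.45 ipsilaterally. All 4 ipsilateral ratios lay above the 3 sham ratios. Ratios were also formed for the Syn, Syt, Vamp, Sv2, Nap and Syngr genes and for AP-2 and clathrin subunits. Those in this paragraph were picked because groups did not overlap, and none was tested. Contralateral ratios lay above all sham ratios for the SNAP adaptor genes Napb to Napa (2.21 to 2.59, against 1.52 to 1.79 in sham). The same held for Syt1 to Syt7 (33.8 to 40.1, against 25.7 to 32.1).

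Napa and Napb encode alpha- and beta-SNAP, the adaptors through which NSF acts on spent SNARE complexes. Napa (chromosome 7, 16098458 to 16117975, plus strand) and Napb (chromosome 2, 148693985 to 148732467, minus strand, 11 exons each) had the same base at 76.3% of 885 aligned positions. Their most similar 60 bases, positions 472 to 531 in both coding sequences, differ at 4 bases, given in capitals, and are shown because Napa and Napb had unlike values.
Napa: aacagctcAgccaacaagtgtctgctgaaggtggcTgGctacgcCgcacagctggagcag
Napb: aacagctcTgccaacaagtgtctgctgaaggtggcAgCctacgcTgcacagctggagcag
No 28-nt word of either gene occurred in another gene.

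Napa measured 200, 234 and 232 CPM in sham, 212, 107, 173 and 158 CPM in contralateral and 112, 118, 122 and 214 CPM in ipsilateral cortex. Ipsilateral replicate 6 lay within the sham range and the other 3 ipsilateral libraries below it. The log2 difference between ipsilateral and sham cortex was -0.57 ± 0.28 (0.672-fold, 95% interval -1.13 to -0.01, adjusted p = 0.630). It was -0.91 without ipsilateral replicate 6 and -0.41 without ipsilateral replicate 2. Napb measured 377 ± 30.0, 391 ± 121 and 353 ± 79.3 CPM in sham, contralateral and ipsilateral cortex, a difference of -0.10 ± 0.23. Nsf itself had a narrow range, from 1278 to 1551 CPM over all 11 libraries, with a difference of 0.05 ± 0.15 (interval -0.25 to 0.35). Between the hemispheres all 8 tested genes of this role had a log2 difference below 0, from -0.21 to -0.08, and none passed. Of all genes 50.3% lay below 0 there. So did 4 of 7 vesicle membrane genes and 3 of 6 genes of calcium sensors and Rab3. The counts were 2 of 4 for the active zone and 8 of 10 for endocytosis. Between contralateral and sham cortex 4 of the 8 SNARE, complexin and disassembly genes lay below 0. Differences between roles were not tested.

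The active zone genes encode very large proteins that organise release sites. Unc13a, the vesicle priming factor Munc13-1 (chromosome 8, 71629054 to 71671736, minus strand, 45 exons), measured 321, 359 and 259 CPM in sham, 342, 322, 289 and 303 CPM in contralateral and 247, 207, 404 and 274 CPM in ipsilateral cortex. The groups overlapped, and the ipsilateral difference from sham was -0.09 ± 0.23 (95% interval -0.56 to 0.39). Bsn, encoding the scaffold bassoon (chromosome 9, 108096022 to 108190384, minus strand, 12 exons), measured 674, 641 and 465 CPM in sham, 485, 735, 496 and 483 CPM in contralateral and 396, 886, 674 and 746 CPM in ipsilateral cortex. Its highest and lowest libraries were both ipsilateral, and the difference between the hemispheres was 0.25 ± 0.20 (interval -0.14 to 0.65, adjusted p = 0.796). Single libraries moved that value: it was 0.47 without ipsilateral replicate 2, 0.41 without contralateral replicate 4 and 0.16 without ipsilateral replicate 4 or without ipsilateral replicate 6. Pclo, the related scaffold piccolo, measured 734 ± 237, 800 ± 93.5 and 727 ± 126 CPM in sham, contralateral and ipsilateral cortex. Rims1, which links vesicles to calcium channels, measured 136 ± 23.2, 158 ± 36.8 and 175 ± 62.6 CPM. Pclo shares 925 nt with genes on the opposite strand, so its counts are uncertain.

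In the endocytic group Dnm1, the neuronal dynamin that severs the vesicle neck (chromosome 2, 32308471 to 32353290, minus strand, 23 exons), stood highest per coding length. It measured 2789, 3172 and 2392 CPM in sham, 2391, 2557, 2483 and 2259 CPM in contralateral and 1952, 2244, 2744 and 2341 CPM in ipsilateral cortex. The groups overlapped, with a log2 difference of -0.26 ± 0.15 between ipsilateral and sham cortex (95% interval -0.55 to 0.04, adjusted p = 0.704).

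Snap91, encoding the clathrin assembly protein AP180 (chromosome 9, 86765936 to 86880449, minus strand, 30 exons), measured 556, 688 and 554 CPM in sham cortex. It measured 458, 452, 479 and 470 CPM contralaterally and 389, 502, 539 and 412 CPM ipsilaterally. Every library of both hemispheres after occlusion lay below every sham library. The log2 difference from sham was -0.39 ± 0.19 ipsilaterally (0.765-fold, 95% interval -0.77 to -0.01, adjusted p = 0.630) and -0.34 ± 0.17 contralaterally (0.791-fold, -0.69 to 0.01, adjusted p = 0.880), and between the hemispheres it was -0.05 ± 0.17.

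Sh3gl2, the gene of endophilin A1, which curves the membrane and recruits synaptojanin (chromosome 4, 85205441 to 85389380, plus strand, 9 exons), measured 345, 313 and 359 CPM in sham, 471, 299, 312 and 380 CPM in contralateral and 299, 207, 380 and 180 CPM in ipsilateral cortex. The groups overlapped, and the hemispheres differed by -0.43 ± 0.22 (0.742-fold, 95% interval -0.88 to 0.02, adjusted p = 0.656). This difference was -0.22 without ipsilateral replicate 6 and -0.62 without ipsilateral replicate 5. Synj1, the synaptojanin that removes the coat by cleaving phosphoinositides, had the smallest ratio of highest to lowest library of the 36 genes (1.17), from 532 to 623 CPM over the 11 libraries, with a difference of -0.08 ± 0.18 between ipsilateral and sham cortex. Amph, encoding amphiphysin, measured 274 ± 34.3, 251 ± 28.8 and 220 ± 52.0 CPM in sham, contralateral and ipsilateral cortex.

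Clathrin and AP-2 are assembled from subunits in fixed numbers, so their levels were set side by side per coding length. Cltc, the clathrin heavy chain, measured 726 ± 201 CPM per kb in sham, 765 ± 55.1 in contralateral and 767 ± 119 in ipsilateral cortex. The light chain genes Clta and Cltb together measured 469 ± 14.3, 461 ± 89.1 and 581 ± 169 CPM per kb, and the ratio of heavy to summed light chains ran from 1.07 to 2.09 over the libraries. In AP-2, the beta subunit gene Ap2b1 measured 324 ± 47.7, 332 ± 32.7 and 330 ± 32.0 CPM per kb. The 2 alpha subunit genes Ap2a1 and Ap2a2 measured 364 ± 24.1, 336 ± 38.9 and 313 ± 35.3 CPM per kb when summed, so the ratio of beta to summed alpha subunits lay between 0.764 and 1.24 in all 11 libraries. The small subunit gene Ap2s1 measured 308 ± 86.3, 340 ± 76.5 and 229 ± 49.9 CPM per kb. Other AP-2 ratios spread more widely. Ap2b1 to Ap2s1 ran from 0.709 to 1.97 over the libraries, with all ipsilateral ratios (from 1.27) above all contralateral ones (to 1.11). Ap2b1 to the medium subunit gene Ap2m1 ran from 0.896 to 5.18, highest in ipsilateral replicate 4. No gene of this pair of complexes passed the test.

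The AP-2 counts differ in how surely they can be assigned. Of the 28-nt words of Ap2m1, the medium subunit, 97.7% occurred in transcripts of other genes, chiefly Gm13509 and Gm18646, and in Ap2b1 11.1% occurred in Gm12834. Ap2m1 held 3 counts in ipsilateral replicate 4 and 23 to 168 in the other libraries, and its level is uncertain. In Ap2a1 3.10% of words occurred in Ap2a2, and 552 nt of its transcript lie opposite Fuz. For 26 of the other 33 genes no word occurred in another gene, and for the remaining 7 at most 1.33% did.

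Of 104 further genes of the vesicle cycle, 74 were in the table and 70 were tested, and none passed in any of the 3 comparisons. Between ipsilateral and sham cortex 44 lay below 0 and 26 above (62.9% below, against 50.0% of all genes), with a median log2 difference of -0.12. By role, 9 of 11 vesicle membrane genes, 6 of 13 genes of calcium sensors and the Rab cycle, 13 of 14 SNAREs and SNARE regulators, 2 of 9 active zone genes and 14 of 23 endocytic genes lay below 0. Differences between these lists were not tested. Between the hemispheres 39 of 70 lay below 0 with a median of -0.02, and between contralateral and sham cortex 39 of 70 with a median of -0.03.

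The smallest adjusted p among these genes belonged to Ppp3ca, the catalytic subunit of calcineurin, the phosphatase that switches on dynamin and other endocytic proteins. Ppp3ca measured 1744 ± 158 CPM in sham, 1499 ± 208 in contralateral and 1108 ± 314 in ipsilateral cortex. Every ipsilateral library lay below every sham library, with a log2 difference of -0.62 ± 0.17 (adjusted p = 0.116). Without ipsilateral replicate 5 the difference was -0.79 and the adjusted p 0.014. This was the 1 call of a further vesicle cycle gene over all 21 settings. Without that library 22 of all genes passed, against 4 with it, and the cause was not tested. The regulatory subunit gene Ppp3r1 measured 840 ± 161, 872 ± 159 and 601 ± 181 CPM, a difference of -0.50 ± 0.20 from sham (adjusted p = 0.477) and -0.54 ± 0.19 from contralateral cortex (0.326). Prrt2, which encodes a brake on SNARE assembly, measured 482 ± 25.3 CPM in sham and 344 ± 22.1 in ipsilateral cortex (-0.49 ± 0.20, adjusted p = 0.460).

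Vamp4, an endosomal SNARE gene, measured 76.5 ± 29.0 CPM contralaterally and 30.1 ± 21.6 CPM ipsilaterally (log2 difference -1.65 ± 0.60, adjusted p = 0.254), at levels near those of a few counts. Between contralateral and sham cortex the genes with the smallest p were Bin1, a relative of amphiphysin also made by oligodendrocytes (-0.65 ± 0.25, adjusted p = 0.769), the phosphoinositide kinase gene Pip5k1c (-0.66 ± 0.28, 0.856) and the adaptor kinase gene Aak1 (-0.44 ± 0.20, 0.856).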

How the data were processed

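The deposited values are whole-number counts of ribosome-protected fragments per Ensembl transcript, 1 column per library, made by the authors; the submitters' processing notes name Bowtie2, edgeR and the build mm10, with no role for any. The counting tool, annotation release and strand setting, and any read filters, are likewise not given in the sources used here. No transcript has fewer than 101 counts in all, the lowest sum in the table. Of 9784 transcripts, 9736 matched GENCODE vM21 (mm10) by identifier; the other 48 held 0.306% of counts and were left out. For each gene the transcript with most counts was kept, ties going to the longest coding sequence. Of the 36 vesicle genes 29 had several transcripts listed, and a read can be counted for each.

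All 11 libraries were fitted together with edgeR 4.0.16 in R 4.3.3 (TMM scaling, filterByExpr at 10 counts, quasi-likelihood fit with robust = TRUE, no block), which kept 3807 of 4338 genes. P-values were adjusted by Benjamini-Hochberg over all of these, with a threshold of 0.05. Log2 differences are fitted coefficients, and SE and 95% intervals come from the Fisher information and the moderated quasi-dispersion. The common dispersion was 0.0291. Coding words of 28 nt and paralog windows came from the GENCODE transcripts, aligned with Biopython 1.88. The fitting script was also run on simulated counts with this common dispersion for every gene. That run does not show how many changes would be found in these libraries.

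The series' design text says that a replicate number stands for a day of surgery, which pairs libraries by day. As a check, deviations from group means across genes correlated at r from -0.137 to 0.225 (median 0.134) for the 7 same-number pairs and from -0.256 to 0.262 (median -0.0294) for the 33 others. Intervals cover the spread between libraries.

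Genes given library by library were those with an unadjusted p under 0.05 in any comparison and, in each role, the gene highest per coding length and the gene with the largest difference; of the further genes, the 3 with the smallest p per comparison. The members, lists and tests were chosen with earlier results of these data known. From the striatal markers 1 gene was left out afterwards and is not reported here. Alternatives were other scaling factors, no filter, DESeq2 1.42.0, limma-voom (limma 3.58.1), the replicate block, only the groups compared, mean counts over transcripts, and leaving out libraries.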

Additional observations from a re-analysis of the deposited data

Results flagged for a closer look

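In groups of 4 libraries, Dixon's 95% criterion (the gap to the nearest library as a share of the group's range) was applied to the 36 genes in both hemispheres, 72 groups in all, of which chance gives about 1 in 20; it picked out 3 (4.17%). Napa measured 214 CPM (25 counts) in ipsilateral replicate 6 and 112 to 122 CPM in the other ipsilateral libraries. Bsn measured 735 CPM (96 counts) in contralateral replicate 4 and 483 to 496 CPM in the others of that group. Cltb, a clathrin light chain gene, measured 295 CPM in ipsilateral replicate 4, where it rests on 10 counts, and 110 to 129 CPM in the other ipsilateral libraries.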

How the results depend on the processing

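Under each of the 20 alternatives per comparison, 0 of the vesicle genes passed in any comparison, and the smallest adjusted p in any of them was 0.255, for Syt2 between ipsilateral and sham cortex without contralateral replicate 4. DESeq2 gave 2 adjusted p of the vesicle genes as missing. The median log2 difference of the vesicle genes ran from -0.124 to -0.032 for ipsilateral against sham, from -0.118 to 0.003 between the hemispheres and from -0.109 to -0.030 for contralateral against sham cortex. The log2 difference of Syt2 from sham ran from 0.69 to 1.01 ipsilaterally (adjusted p 0.255 to 0.743) and that of Cplx2 from -0.76 to -0.56 (0.346 to 0.692). Adding the surgery day as a replicate block, 3 genes of all tested passed for ipsilateral against sham, 9 between the hemispheres and 0 for contralateral against sham cortex, where without it 4, 12 and 0 did; the block changed no call of a vesicle gene. Over all genes, DESeq2 called 10 for ipsilateral and 2 for contralateral against sham cortex, and 7 were called between the hemispheres without the 2 shallowest libraries. Leaving out 1 library gave 0 to 22 (0 without sham replicate 1, 2 without sham replicate 5, 22 without ipsilateral replicate 5), 3 to 26 (3 without ipsilateral replicate 2, 4 and 5 without contralateral replicates 6 and 1, 26 without ipsilateral replicate 5) and 0 to 3 genes (3 without sham replicate 5, 1 without ipsilateral replicate 6), and 0 to 1 of the further vesicle cycle genes for ipsilateral against sham cortex; the cause was not tested. The share of footprints was 2.87%, 2.81% and 2.62% in sham, contralateral and ipsilateral cortex with mean counts over transcripts. With TMM-scaled totals it was 3.29%, 3.29% and 3.1% in the same order. Per kb of whole transcript the median sham level was 143 CPM. Depth limits Vamp1, Syt2 in the 2 shallowest libraries, and Napa and Ap2m1 in the shallowest library.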
